A study of Arabidopsis thaliana with 3 samples.

Results

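The group described here holds transcripts whose signal was within or just above that of dim control probe sets in plants flooded with water, and higher by a set margin in plants flooded with the herbicide 2,4-dichlorophenoxyacetic acid (2,4-D). Members were the probe sets of the Affymetrix ATH1 array with a signal under 14 on the water array and at least 30 on both 2,4-D arrays. Genes encoded in the organelles and families described by a fixed set of symbol prefixes were left out, where a naming table listed the probe set. The limits were met by 57 probe sets, and 4 of them were left out: a plastid probe set (ndhG), a probe set shared by the mitochondrial gene cob and a nuclear locus, and the probe sets of LEA4-5 and IAA30. The 53 that remained, of 22746 in all, are the members. Of these, 24 carried 1 gene in the naming table and 29 were not listed there. A probe set that is not listed is unnamed here, not without a gene. It could not be screened for the genes left out, so the unlisted members may include some of them.

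All samples were whole Arabidopsis thaliana Col-0 plants with 4 rosette leaves, Col-0 being the standard laboratory accession. They were grown for 14 days on 1% phytagel with MS medium and 1.5% sucrose. All had 48 hours of cold and dark at 4 °C and a photoperiod of 16 hours. Plates were flooded with 1 mL of distilled water (1 array) or 1 mL of 1 mM 2,4-D in water at neutral pH (2 arrays), for 1 hour. The labels do not say whether the 2,4-D samples came from separate plates. The values are MAS5 signals, which are intensities on a linear scale that the authors scaled per array.

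The synthetic auxin 2,4-D binds the TIR1 and AFB auxin receptors, which then mark the Aux/IAA repressors for destruction and free the auxin response factors to act on their target genes. Because broad-leaved plants clear it slowly, it keeps this pathway active, and ethylene and abscisic acid made in response are known parts of its herbicidal action.

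Background was judged from 27 control probe sets for Bacillus transcripts, which gave low signals throughout. The highest signal among them was 13.9 with water, 10.7 in 2,4-D replicate 1 and 8.37 in 2,4-D replicate 2, and it exceeded or equalled that of 26.5%, 26.3% and 22.9% of the arrays' probe sets. The array medians were 41.9, 38.7 and 38.5. On the water array 51 of the 53 members lay at or below the brightest dim control and 2 lay just above it. A member's fold is therefore given as the geometric mean of the 2,4-D signals over the control's 13.9, and the ratio of the deposited signals is not used. This fold, written as at least, is a lower bound only with regard to the water signal. It takes no account of the spread between arrays, and a single 2,4-D array can give a lower fold. The water group holds 1 array, so no spread between water samples could be measured. The signals of different probe sets are not comparable as transcript amounts, and they are set side by side only to show how far each lay from background. In whole plants, a change in RNA per cell and a change in the number of expressing cells cannot be told apart.

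The rule used these signals, so they are given as a description with no test. Over the 53 members the water signal ran from 0.522 to 14.0 with a median of 9.67. The signal ran from 30.2 to 271 with a median of 42.0 on 2,4-D replicate 1, and from 30.4 to 329 with a median of 48.7 on 2,4-D replicate 2. Members lay between percentiles 1.31 and 26.7 of all probe sets on the water array, and their medians of 51.8 and 55.2 on the 2,4-D arrays put the typical member in the middle of the range. Most members left background by a modest distance: 37 were under 50 on the lower of the 2,4-D arrays, 12 lay from 50 to under 100, and 4 were at 100 or more on both. The median bound was 3.24-fold, with 22 members under 3-fold, 22 from 3-fold to under 5-fold and 9 at 5-fold or more.

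**Figure D1:**
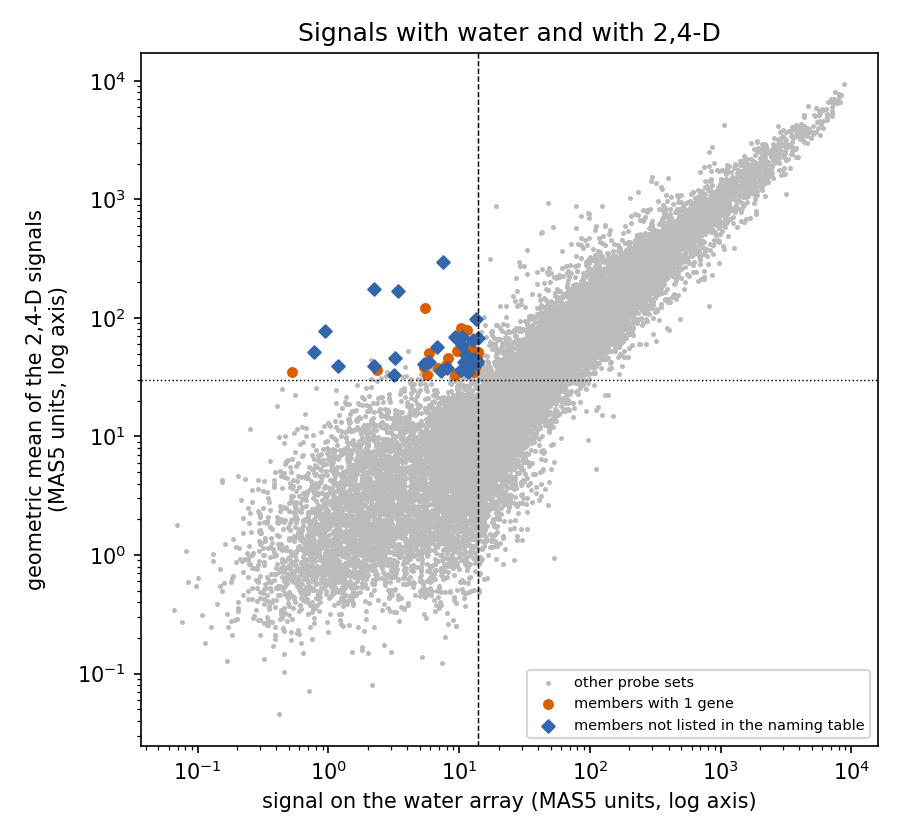
Each point is 1 probe set, with its signal on the water array on the x axis and the geometric mean of its signals on the 2 2,4-D arrays on the y axis, both in MAS5 units on log axes. The dashed line marks the water limit of 14 and the dotted line 30. The 53 members lie in the upper left corner, with water signals from 0.522 to 14.0. On the lower of their 2,4-D signals 37 of them were under 50, and 3 unlisted members and AT3G56260 stand above 100. Other probe sets also lie in that corner, being under 30 on a single 2,4-D array (such as AT4G31875) or left out of the group (such as LEA4-5).

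Few of the probe sets that were dim with water reached the treated limit. Of the 6077 probe sets under 14 on the water array, 57 reached 30 on both 2,4-D arrays, which is 0.938%. In the other direction, 6277 probe sets were under 14 on both 2,4-D arrays, and 106 of these (1.69%) were at 30 or more on the water array. These shares are not like for like, since the first asks for 1 dim array and the second for 2. The limit of 14 also lay near the brightest dim control with water (13.9) but well above those with 2,4-D (10.7 and 8.37). Read on single arrays, 96 probe sets were under 14 with water and at least 30 on 2,4-D replicate 1, and 106 on 2,4-D replicate 2. In reverse, 187 were under 14 on 2,4-D replicate 1 and at least 30 with water, and 229 were so for replicate 2. Falls to background were thus more frequent than rises from it on this reading. Between the 2,4-D arrays themselves, 35 were under 14 on replicate 1 and at least 30 on replicate 2, and 26 went the other way. Differences of this size thus also occurred between samples of the same treatment.

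The named members were grouped by what is generally known of their genes. Genes of metabolism and redox chemistry are described first. The share of such genes on the array was not counted, so nothing is read from there being 7 such members. The one with the highest bound was AT5G16960, a zinc-binding dehydrogenase related to the alkenal reductases that detoxify reactive aldehydes. Its signal was 10.4 with water against 66.3 and 100 with 2,4-D, at least 5.88-fold higher. AT2G40230, an acyltransferase of the HXXXD (BAHD) type that joins acyl groups to secondary metabolites, had 13.0 with water against 51.7 and 54.2 with 2,4-D, at least 3.82-fold higher. CCR2 (AT1G80820) encodes a cinnamoyl-CoA reductase, an enzyme on the way to lignin that is known for induction during pathogen attack. Its signal was 8.19 with water against 38.6 and 54.9 with 2,4-D, at least 3.32-fold higher. The dirigent-like gene AT4G11210, whose protein family guides the coupling of phenolic radicals, had 12.0 with water against 41.2 and 50.6 with 2,4-D, at least 3.29-fold higher.

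PDC2 (AT5G54960) encodes pyruvate decarboxylase, the first enzyme of ethanol fermentation. Its signal was 5.39 with water against 37.9 and 39.3 with 2,4-D, at least 2.78-fold higher. ROXY1 (AT3G02000) encodes a plant-specific CC-type glutaredoxin known for its part in petal development, where it acts with TGA transcription factors. Its signal was 5.85 with water against 44.5 and 57.2 with 2,4-D, at least 3.64-fold higher. AT1G30700, for a berberine bridge enzyme-like flavin oxidoreductase, lay close to the treated limit on replicate 2, with 9.30 with water against 36.4 and 30.4 with 2,4-D, at least 2.40-fold higher. In each of these 7 genes both 2,4-D signals lay above the water signal, as the rule requires, and the 2,4-D arrays were within 1.5-fold of each other in all but AT5G16960.

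Regulators of transcription and chromatin made up the next group. AT1G31050 encodes a bHLH transcription factor and was the 1 named member above the dim control on the water array. Its signal was 14.0 with water against 52.3 and 50.4 with 2,4-D, or 3.67-fold higher. AT1G68360, for a C2H2 zinc finger protein known from the control of trichome formation, had 13.6 with water against 36.9 and 57.0 with 2,4-D, at least 3.31-fold higher. AT2G34140 encodes a Dof-type zinc finger protein of the cycling Dof factors, which repress flowering-time genes. Its signal was 13.5 with water against 46.4 and 33.8 with 2,4-D, at least 2.86-fold higher. AT3G19080, for a protein with the SWIB domain found in chromatin remodelling complexes, had 6.91 with water against 35.5 and 39.5 with 2,4-D, at least 2.70-fold higher. The 3 transcription factor genes had water signals close to the limit of 14, whereas AT3G19080 lay well under it.

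Signalling and defence genes were a further group. RAPTOR2 (AT5G01770) encodes the less used of the plant's Raptor proteins, which present substrates to the growth-controlling TOR kinase. Its signal was 13.1 with water against 40.8 and 41.6 with 2,4-D, at least 2.97-fold higher. AT1G14480, for a protein with ankyrin repeats, had 11.8 with water against 49.7 and 65.6 with 2,4-D, at least 4.12-fold higher. AT1G63750 encodes an intracellular immune receptor of the TIR-NBS-LRR class. Its signal was 12.4 with water against 36.8 and 40.5 with 2,4-D, at least 2.78-fold higher. Protein kinases are represented by a pair of genes. AT3G57760 had the lowest water signal of the 53 members, 0.522, against 35.1 and 35.4 with 2,4-D, at least 2.54-fold higher. AT5G38210 had 5.69 with water against 32.2 and 34.4 with 2,4-D, at least 2.40-fold higher. Both kinase genes had 2,4-D signals that nearly coincided between the arrays.

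Genes of membranes, lipid droplets and the cell wall completed the set with a known role. AT2G47780 encodes a small rubber particle protein, a family that coats lipid droplets in Arabidopsis. Its signal was 9.58 with water against 40.1 and 68.3 with 2,4-D, at least 3.78-fold higher, and its 2,4-D arrays lay furthest apart among the named members. AT3G25610, for a phospholipid-transporting P4 ATPase that flips lipids across membranes, had 2.35 with water against 30.2 and 43.2 with 2,4-D, at least 2.60-fold higher. EXLA3 (AT3G45960), an expansin-like protein whose relatives loosen cell walls, had 9.67 with water against 35.5 and 32.8 with 2,4-D, at least 2.46-fold higher.

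The remaining 5 named members are given with no role. AT3G56260 was the brightest of all named members with 2,4-D. Its signal was 5.45 with water against 111 and 131 with 2,4-D, at least 8.70-fold higher, and it moved from percentile 15.2 on the water array to 74.0 and 77.6. AT5G53710 had 11.4 with water against 62.1 and 101 with 2,4-D, at least 5.70-fold higher. The other 3 lay closer to the limits. AT2G39650, which encodes a protein with a plant-specific domain of unknown function (DUF), had 11.3 with water against 55.1 and 38.3 with 2,4-D. AT1G30250 had 7.98 with water against 37.6 and 42.8 with 2,4-D, and AT5G45310 had 13.0 with water and 31.7 and 38.8. The bounds of these 3 genes were 3.31-fold, 2.89-fold and 2.53-fold.

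**Figure D2:**
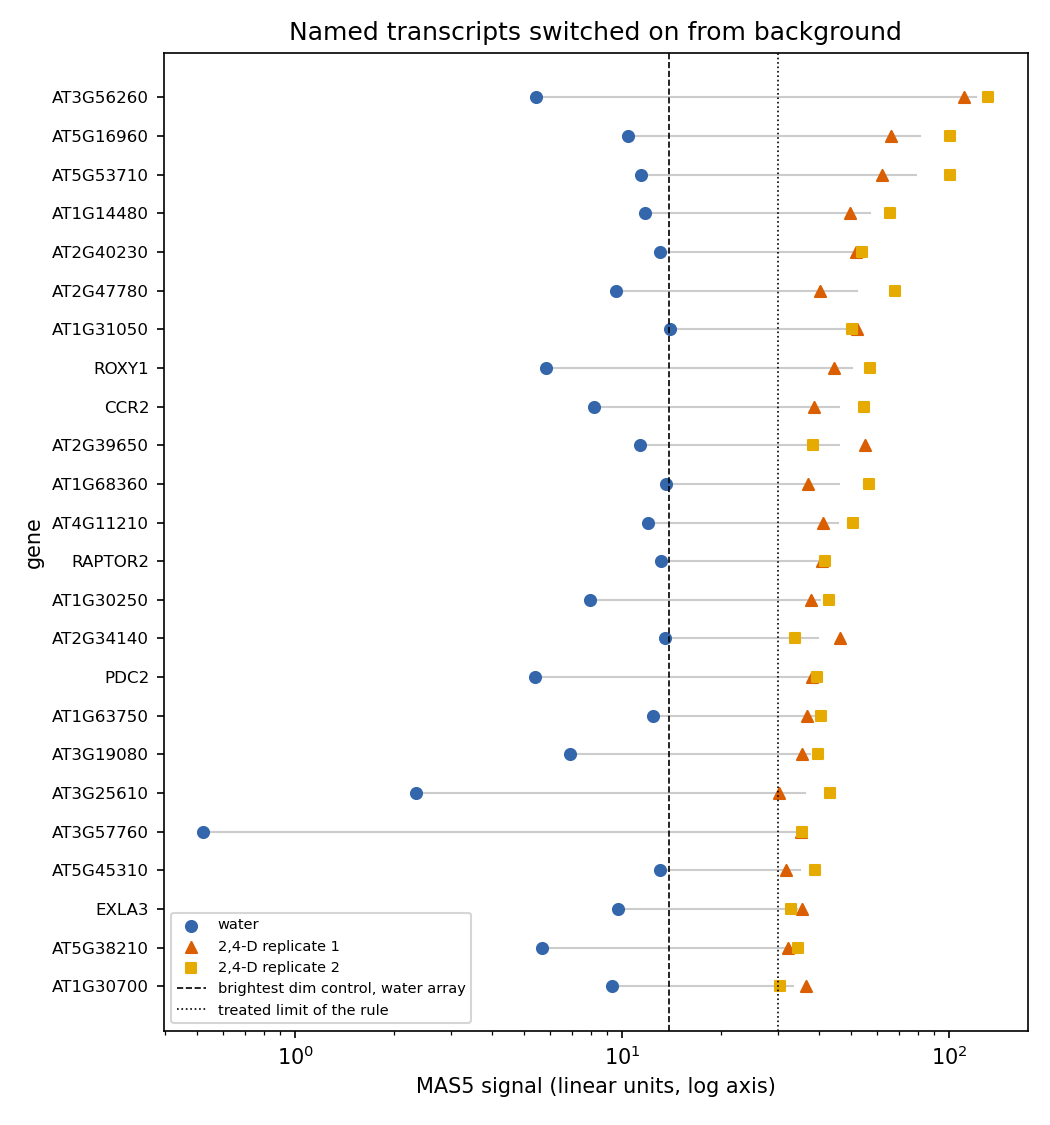
The 24 named members, 1 gene per row in the order of their geometric mean 2,4-D signal, with the MAS5 signal of each array on a log axis (circle, water; triangle, 2,4-D replicate 1; square, 2,4-D replicate 2). The dashed line is the brightest dim control of the water array (13.9) and the dotted line the treated limit of 30. Water signals spread from 0.522 to 14.0, while most 2,4-D signals lie within 30 to 70.

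The 29 unlisted members include 3 of the 4 members at 100 or more on both 2,4-D arrays. The first had 7.56 with water against 271 and 329 with 2,4-D, at least 21.5-fold higher, the highest bound of any member. The second had 2.21 with water against 132 and 236 with 2,4-D, at least 12.7-fold higher, and the third had 3.40 with water against 154 and 187 with 2,4-D, at least 12.2-fold higher. The other 26 had bounds from 2.38-fold to 7.07-fold. Unlisted probe sets made up 54.7% of the members, 38.4% of all probe sets and 27.0% of those under 14 on the water array. Of the 53 members 3 carried a suffix that marks probes shared by several transcripts, all of them unlisted, so the 24 named members rest on probe sets without that mark.

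The spread between the 2,4-D arrays is the only measure of how each member's treated level varied, and it may be technical only. The log2 ratio of replicate 2 to replicate 1 had a median of 0.15 and an SD of 0.31 over the 53 members, with a range from -0.53 to 0.84. Over the 9796 probe sets with a geometric mean signal in the members' range it had a median of -0.01 and an SD of 0.33. The arrays were within 1.5-fold for 48 of the 53 members, or 90.6%, against 92.9% of those probe sets. The rule asked for at least 30 on both 2,4-D arrays, and those probe sets were not held to that. It limited how far the arrays of a dim member could differ, so the shares and SDs are not like for like. The members that differed most were higher on replicate 2: the unlisted probe set with 132 and 236 (0.84), AT2G47780 (0.77), AT5G53710 (0.70), AT1G68360 (0.63) and AT5G16960 (0.60). Of all members, 40 were higher on replicate 2 and 13 on replicate 1. The share higher on replicate 2 was 75.5%, against 48.6% of the probe sets of like signal, a difference that was not tested.

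**Figure D3:**
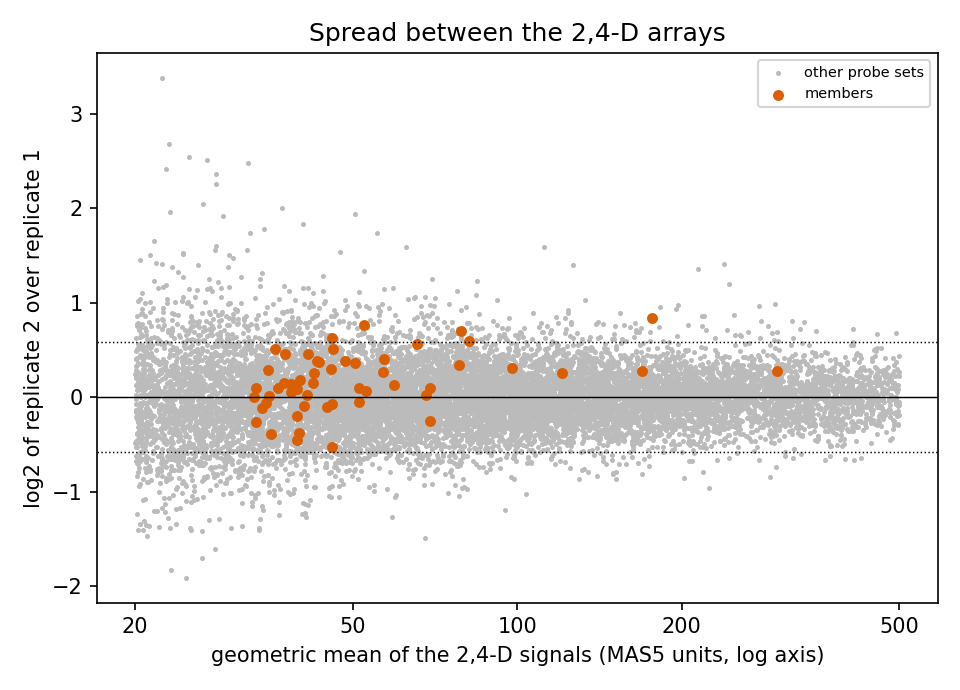
The log2 ratio of 2,4-D replicate 2 over replicate 1 (y axis) is plotted against the geometric mean of the 2,4-D signals in MAS5 units (x axis, log scale), with members in orange and other probe sets with a geometric mean from 20 to 500 in grey. Dotted lines mark 1.5-fold. Of the 53 members 48 lie between the lines and 40 lie above 0.

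In a limma fit over all 13648 probe sets with a mean signal of at least 24.8, 10.8% were called higher with 2,4-D at an adjusted p under 0.05 and 10.5% lower. Of the members 50 were tested and 50 were called higher. They were chosen on the same contrast, and the filter on the mean let them in through their 2,4-D signals, so nothing can be read from that count. The 3 untested members included AT3G57760 and AT5G38210. The limits of the rule separate genes of nearly equal signal, here given after rounding. Just inside the water limit were AT2G34140, AT1G68360 and AT1G31050. Just outside lay AT5G58120 (14.0 with water, 52.5 and 56.4 with 2,4-D), AT2G28940 (14.2, 31.1 and 30.9) and AT4G19510 (14.6, 45.5 and 36.2). The named members with the lowest 2,4-D signals were AT3G25610, AT1G30700 and AT5G45310. Just under 30 on 1 array were AT1G49450 (2.51 with water, 32.1 and 29.7 with 2,4-D), AT4G31875 (5.72, 39.9 and 29.8) and AT5G40600 (14.0, 30.6 and 29.8).

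Relatives of the members were not chosen by the rule and so could be tested, where they passed the filter on the mean signal. Over 11 families of named members, drawn up from general knowledge once the members were known, 89 related genes were listed, 63 had a probe set with 1 gene and 35 were tested. Of these 5 were higher (14.3%, against 10.8% of all tested probe sets) and 6 were lower (17.1%, against 10.5%). The relatives thus went both ways, and 24 of the 35 did not pass.

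The berberine bridge enzyme-like family of the member AT1G30700 rose in 2 of 6 tested genes, and 0 fell. AT4G20830 had signals of 44.4 with water against 171 and 229 with 2,4-D (log2 change 2.16 ± 0.23, SE, n = 2 against 1). AT4G20860 had 59.5 with water against 122 and 158 with 2,4-D, and a log2 change of 1.22 ± 0.24. The other 4 tested members of the family had log2 changes from -0.34 to 0.60, and 14 were too dim to be tested. In the small rubber particle family AT1G67360 rose, from 92.8 with water to 265 and 293 with 2,4-D (log2 change 1.59 ± 0.20). The third gene of that family, AT3G05500, had 239 with water against 238 and 305 with 2,4-D and did not pass (limma adjusted p = 0.575).

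The CC-type glutaredoxins around ROXY1 were divided. Of 11 tested, 1 was higher and 4 were lower. GRX480 (AT1G28480), which links salicylic acid to jasmonate responses through TGA factors, rose from 23.2 with water to 65.0 and 55.5 with 2,4-D (log2 change 1.37 ± 0.35, limma adjusted p = 0.000954). AT2G47880 fell from 142 to 53.2 and 66.9 (log2 change -1.25 ± 0.26), and AT1G06830 from 215 to 131 and 121 (log2 change -0.77 ± 0.21). The adjacent genes AT3G62950 and AT3G62960 were also lower, with log2 changes of -1.29 ± 0.43 and -1.10 ± 0.40. ROXY2, the closest relative of ROXY1, had 27.4 with water against 39.9 and 55.1 with 2,4-D, and a log2 change of 0.78 ± 0.37 that did not pass (limma adjusted p = 0.119, and 0.042 after quantile normalization). Calls on the dimmer and smaller falls depended on the fit: without a filter on low signal the adjusted p was 0.102 for AT3G62950 and 0.134 for AT3G62960 (0.0574 with the arrays scaled to 1 median), and without the intensity trend it was 0.0673 for AT1G06830.

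Of the 4 tested relatives of AT5G16960 1 was higher, AT1G65560, with 19.2 with water against 45.6 and 51.0 with 2,4-D (log2 change 1.33 ± 0.39, limma adjusted p = 0.00553, and 0.0579 without a filter on low signal). AER (AT5G16970), the alkenal reductase gene that directly follows AT5G16960 on the chromosome, had 312 with water against 424 and 359 with 2,4-D, and a log2 change of 0.33 ± 0.19 that did not pass. In the cycling Dof family AT1G69570 was lower, with 113 with water against 65.7 and 55.2 with 2,4-D (log2 change -0.90 ± 0.27, limma adjusted p = 0.007), while the member AT2G34140 was higher. Among 6 tested P4 ATPase genes AT1G13210 was lower (log2 change -0.77 ± 0.28, limma adjusted p = 0.0307) and 0 were higher. That call ended with the arrays scaled to 1 median (adjusted p = 0.0765), without a filter (0.0925) and without the trend (0.0737).

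Other members with a listed family had no tested relative that passed. For named members without a listed family no relatives were examined. RAPTOR1, the main Raptor gene, had 80.7 with water against 75.7 and 68.8 with 2,4-D (log2 change -0.16 ± 0.27). The expansin-like genes EXLA1 (-0.61 ± 0.25), EXLA2 (0.36 ± 0.26) and EXLB1 (-0.27 ± 0.24) did not pass, EXLA1 with a limma adjusted p of 0.0597. The relatives of PDC2 and CCR2 had no probe set with a single name, and those of the kinase gene AT3G57760 were too dim to be tested.

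Genes next to the members on the chromosome were examined in the same way, with the same filter and its limit. The 24 named members have 48 flanking protein-coding genes in the RefSeq annotation, and 0 of these are members themselves. Of the 28 with a probe set of 1 gene 13 were tested, and 1 was higher, or 7.69% against 10.8% of all tested probe sets. This was AT1G30260, beside AT1G30250, with 86.7 with water against 192 and 187 with 2,4-D (log2 change 1.13 ± 0.22). On the other side of the count AT5G54970, beside PDC2, was lower, with 287 with water against 193 and 154 with 2,4-D (log2 change -0.73 ± 0.20, limma adjusted p = 0.00271, and 0.094 without the intensity trend). The median log2 change of the 13 neighbours was -0.08, against -0.04 over all tested probe sets. Of the 24 named members 7 lay on chromosome 1, 4 on chromosome 2, 6 on chromosome 3, 1 on chromosome 4 and 6 on chromosome 5. These chromosomes hold 25.8%, 16.5%, 20.5%, 14.7% and 22.5% of the nuclear probe sets with 1 gene, in the same order.

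**Figure D4:**
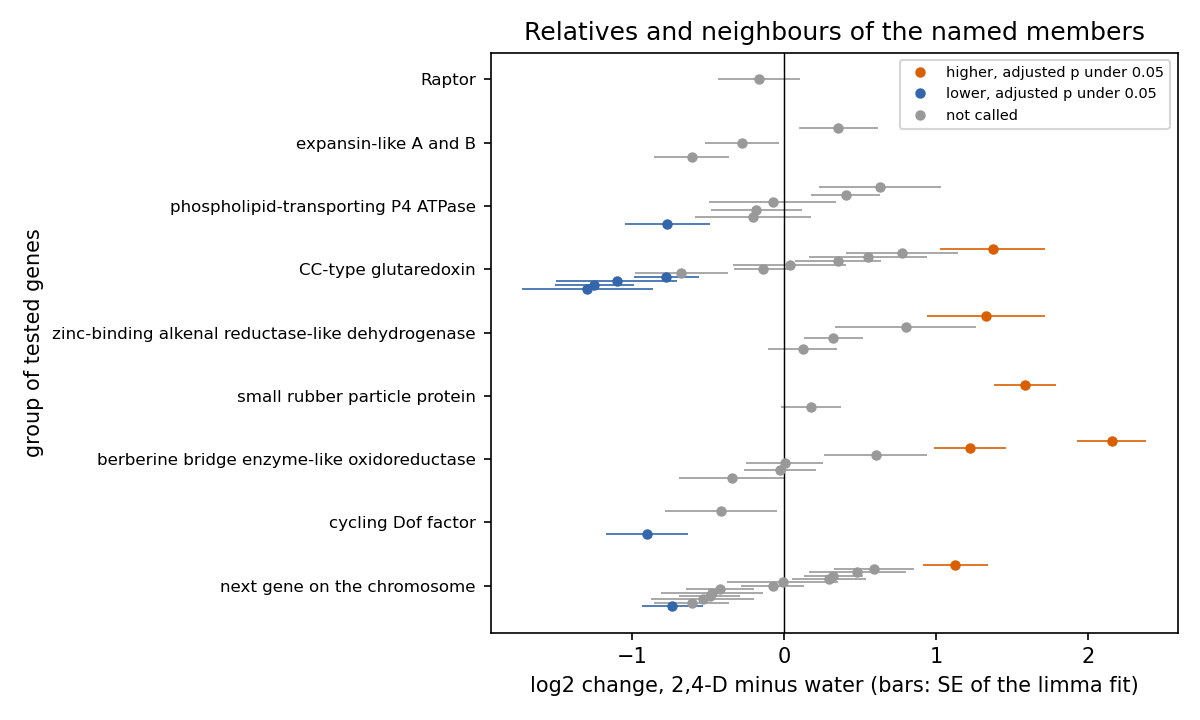
Log2 changes, 2,4-D minus water, of the tested relatives of the named members by family and of the tested neighbouring genes (bottom row), 1 point per gene with the SE of the limma fit as bars. Orange points are higher and blue points lower at an adjusted p under 0.05, and grey points did not pass. AT4G20830, a berberine bridge enzyme-like gene, lies furthest to the right at 2.16, and the glutaredoxins lie on both sides of 0.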

How the data were processed

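The deposited values are intensities that the authors made with MAS5, per the submitters' processing notes, which state neither its version nor the target of the scaling. No detection calls were used. The table held 22810 probe sets, and 64 controls were set aside. Names came from a probe-to-gene table and RefSeq (TAIR10.1, names and gene order only): 13513 probe sets had 1 symbol, 503 several and 8730 none. A gene with several probe sets was read from the brightest.

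Signals were taken to log2 with no offset or further normalization. Probe sets with a mean signal at or above the 40th percentile (24.8) were fitted in limma 3.58.1 (R 4.3.3) by lmFit and eBayes using an intensity trend and Benjamini-Hochberg adjustment. Only the 2,4-D pair gave a residual degree of freedom (1), the water array was assumed to vary alike, and p-values may measure technical spread only. The prior degrees of freedom came out infinite, so each variance was that of the trend. The smallest adjusted p-values of named genes rest on this and are not printed, because they were far larger without the intensity trend. The number of arrays limits the precision.

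Members and lists were chosen with earlier results of these data known. Named with values were up to 30 members by 2,4-D signal, members of the fixed lists, and 3 genes on each side of each limit; relatives and neighbours were added after the members were seen. A planned search of promoter motifs was not run.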

Additional observations from a re-analysis of the deposited data

How the results depend on the processing

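The number of members moved with each limit of the rule: 27 with a water limit of 10, 135 with a limit of 20, 165 with a treated limit of 20 and 16 with a treated limit of 50. The last kept AT3G56260, AT5G16960, AT5G53710, AT2G40230 and AT1G31050 among the named. Quantile normalization gave 88 members and scaling to 1 median 63, and both kept all 53. With a single 2,4-D array the count was 92 to 102. The median bounded log2 change of the members, 1.69, was 1.96 after quantile normalization, 1.36 with an offset of 16 before log2, and 2.44 on the deposited water signals, which lie within background; with a single 2,4-D array it was 1.60 to 1.81. Of the members 5 were tested, and called, with a filter at the 60th percentile, and 46 of 53 were called without a filter, the losses including AT1G30700, AT1G63750, AT2G34140, AT5G45310 and EXLA3. Over all probe sets 2906 calls (1472 higher, 1434 lower) became 1674 (964 and 710) without a filter and 1673 (834 and 839) without the intensity trend. Scaling to 1 median gave 2031 higher and 991 lower calls, 67.2% of them higher against 50.7%, and a median change of 0.07 against -0.04. The causes of these shifts were not tested. Among tested relatives of the members, 5 higher calls became 3 with the filter at the 60th percentile, which left 19 to test, and 6 lower calls became 3 without a filter. Among neighbouring genes, 1 higher call became 2 with the arrays scaled to 1 median, and 1 lower call became 0 without the intensity trend. No paired analysis was possible because the groups share only 1 replicate number. With 1 water array, leaving out a 2,4-D array left no residual degrees of freedom, so those settings gave values with no test.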

Other observations

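Lists of 307 gene symbols were drawn up for hormone, stress and tissue functions that the members might touch. Only 26 genes of these lists had a probe set with 1 name and 16 were tested, so most of each list was not seen. The filter on the mean signal applied here as it did to the relatives. PDC2 and ROXY1 are members, so their direction was fixed by the rule. Of the other 14 tested genes 3 were higher (21.4%, against 10.8% of all tested probe sets) and 1 was lower (7.14%, against 10.5%). The dehydrin gene LTI30, whose product protects cells during cold and drying, was the single tested gene of the abscisic acid list. Its signal rose from 100.3 with water to 297 and 352 with 2,4-D (log2 change 1.69 ± 0.20). In the low oxygen list PDC2 was the single tested gene, and AT3G10040 (19.7 with water, 0.543 and 22.7 with 2,4-D) was too dim to be tested. In the list of CC-type glutaredoxins GRX480 was higher and ROXY2 did not pass, and in the wider family of 11 tested relatives of ROXY1 1 was higher and 4 were lower. In the list of chemical stress genes ALDH7B4, an aldehyde dehydrogenase gene, was higher (247 with water, 303 and 410 with 2,4-D, log2 change 0.51 ± 0.19, limma adjusted p = 0.0422) and AER did not pass. The ALDH7B4 call ended after quantile normalization (adjusted p = 0.098), without a filter (0.159) and without the intensity trend (0.243).

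In the list of auxin transport and response genes 1 of 3 was lower and 0 were higher. ARL, a gene of cell expansion in growing organs, fell from 130 with water to 51.2 and 38.9 with 2,4-D (log2 change -1.54 ± 0.29). YUC2 and WAG2 did not pass. The lists for ethylene synthesis and for gibberellin, brassinosteroid and cytokinin metabolism had 0 genes with a single-name probe set. Of the genes that report on tissue, 0 of 1 tested root gene (PYK10), 0 of 4 photosynthesis genes and 0 of 1 tested pollen gene (AGL65) passed in limma, and the 3 named seed genes were too dim to be tested. The summed signal of the 4 photosynthesis genes was 20161 with water, 13426 on 2,4-D replicate 1 and 20579 on 2,4-D replicate 2, a sum set mainly by the brightest probe sets. LHCB4.2 (5596 with water, 3700 and 4294 with 2,4-D) and LHCB4.3 (190 with water, 154 and 157) lay below the water signal on both 2,4-D arrays, and LHCB4.1 and RCA lay below it on replicate 1 and above it on replicate 2. The other root genes, EXPA7 (37.0 with water, 15.1 and 15.3 with 2,4-D) and EXPA18 (43.8 with water, 7.98 and 3.55), had lower signals on both 2,4-D arrays, and their mean signals fell under the filter. The part of tissue composition in the members' values was not tested. The seed storage gene PAP85 (17.4 with water, 6.73 and 6.89 with 2,4-D) was not higher with 2,4-D.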
